A study of Mus musculus with 12 samples.

Results

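The TGF-beta ligands, receptors and latency proteins considered here are 10 mouse genes, chosen by name: the ligands Tgfb1, Tgfb2 and Tgfb3, the receptors Tgfbr1, Tgfbr2 and Tgfbr3, the latent TGF-beta binding proteins Ltbp1, Ltbp2 and Ltbp3, and Tgfbi, a matrix protein named for its induction by TGF-beta. All 10 are among the 28689 genes of the deposited table, and all 10 are among the 12467 genes with at least 1 FPKM (fragments counted on a gene, divided by its length in kilobases and by the depth of its library) in at least 6 libraries, which were tested.

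RNA of mouse lung endothelial cells (MLECs) of adult mice was sequenced in 12 libraries, 6 from control (CTR) and 6 from endothelial Sp1 and Sp3 double knockout (dKO) mice. Sp1 and Sp3 are transcription factors that bind GC boxes. dKO mice carried VE-CAD-CreERT2 and floxed alleles of both genes (Sp1 fl/fl and Sp3 fl/fl), with Cre under the control of the VE-cadherin promoter. CTR mice are given as WT in the labels and, in the study's methods, as littermates with the same floxed alleles and no Cre, and mice of both groups received tamoxifen. The deposited table heads the dKO columns with TAM, which no label uses as a name, and they were taken as dKO because the other columns are headed CTR. The cells were taken with beads against CD31 and then against intercellular adhesion molecule 2, and were grown in culture for up to 3 passages. The number of mice behind a library is not stated, so the p-values below measure the spread between these libraries.

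TGF-beta is made as a precursor that stays bound to its propeptide in a latent complex. Latent TGF-beta binding proteins tie that complex to the extracellular matrix, and integrins, thrombospondin and proteases release the active ligand. The active ligand brings the type II receptor (Tgfbr2) and a type I receptor (Tgfbr1, or in endothelial cells also Acvrl1) together, with Tgfbr3 and endoglin as co-receptors, and the type I receptor then phosphorylates Smad proteins. In endothelial cells the pathway is known for its parts in vessel maturation and in the change of endothelial towards mesenchymal cells.

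Each library held between 15523054 and 17938286 fragments, and the members had between 230 fragments (Tgfbi) and 21259 fragments (Tgfbr2) in a library. Sp1 fell in dKO with no overlap between the groups, whereas Sp3 had a log2 fold change of −0.14 with an adjusted p of 0.0902 from limma and lay below all CTR libraries in only 2 of the 6 dKO libraries, so the labels were checked by Sp1 alone. Along principal component 2 (17.9% of the variance) CTR replicate 4 and dKO replicate 1 stood at opposite ends. Results of the members that turn on them are given with and without them. All 10 endothelial markers were detected, with a summed level of 150 to 233 FPKM in CTR and 280 to 376 FPKM in dKO, and 9 of them rose. The summed level of 10 macrophage markers was higher than that in every library, at 859 to 1432 FPKM in CTR and 2476 to 5678 FPKM in dKO. Of these macrophage markers 9 rose and 1 (Marco) fell, and none was at 0. Lyz2 made up the largest part of their sum on average, at 746 FPKM in CTR and 1868 FPKM in dKO. Of 7 mesothelial markers 6 rose, with sums of 31.1 to 41.6 FPKM in CTR and 70.0 to 150.1 FPKM in dKO, and all 4 tested markers of other leukocytes rose. Of 7 tested fibroblast markers 1 rose and 2 fell, with sums of 132 to 328 FPKM in CTR and 98.3 to 239 FPKM in dKO. Pdgfra made up the largest part of the fibroblast sum on average, at 117 FPKM in CTR and 104 FPKM in dKO. Among the other lists 3 of 6 lymphatic endothelial markers rose and 1 fell (Mmrn1, 8.46 to 19.3 FPKM in CTR and listed at 0 in all 6 dKO libraries), 3 of 7 pericyte markers rose and 1 fell, and 1 of 6 smooth muscle and 3 of 10 lung epithelial markers rose. Beside these marker counts, 20.4% of all genes tested rose and 32.6% fell. In such bulk RNA, more cells of a type and more RNA per cell cannot be told apart.

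Stretches upstream of 4 genes are shown first, because these are the ligands and latency proteins whose levels differed between the groups in every setting tried. They are the 250 bases before the gene start in RefSeq (GRCm38.p6), each matched without a mismatch to 1 place of GRCm39, whose coordinates are given, and capitals mark GC boxes (GGGCGG, or CCGCCC on the other strand). The stretches are chr7:25386177-25386426 on the plus strand for Tgfb1, chr1:186438187-186438436 on the minus strand for Tgfb2, chr17:75312274-75312523 on the plus strand for Ltbp1 (the more upstream of 2 RefSeq starts) and chr19:5790678-5790927 on the plus strand for Ltbp3. By the GENCODE annotation their last 37, 108, 5 and 0 bases, in this order, lie inside the gene.
Tgfb1: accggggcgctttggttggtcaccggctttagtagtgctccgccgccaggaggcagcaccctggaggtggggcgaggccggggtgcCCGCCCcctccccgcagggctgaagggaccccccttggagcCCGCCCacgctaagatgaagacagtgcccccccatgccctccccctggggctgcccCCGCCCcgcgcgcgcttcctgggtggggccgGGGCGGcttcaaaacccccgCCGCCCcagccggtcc
Tgfb2: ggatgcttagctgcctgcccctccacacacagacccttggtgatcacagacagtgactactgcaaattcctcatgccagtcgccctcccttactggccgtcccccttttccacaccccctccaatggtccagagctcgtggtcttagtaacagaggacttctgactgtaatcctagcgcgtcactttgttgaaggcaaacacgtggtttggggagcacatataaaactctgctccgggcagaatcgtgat
Ltbp1: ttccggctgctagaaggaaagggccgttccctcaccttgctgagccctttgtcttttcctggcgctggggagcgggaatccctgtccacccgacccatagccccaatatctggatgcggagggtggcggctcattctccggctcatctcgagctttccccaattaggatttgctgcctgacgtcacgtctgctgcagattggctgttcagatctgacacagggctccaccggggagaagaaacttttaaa
Ltbp3: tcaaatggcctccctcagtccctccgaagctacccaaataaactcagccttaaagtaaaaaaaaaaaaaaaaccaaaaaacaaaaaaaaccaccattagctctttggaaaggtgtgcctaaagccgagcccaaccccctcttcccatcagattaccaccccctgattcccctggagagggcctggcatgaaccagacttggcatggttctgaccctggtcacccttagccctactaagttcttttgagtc
The Tgfb1 stretch holds 5 GC boxes, and Tgfb2, Ltbp1 and Ltbp3 hold none.

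RefSeq promoters of 300 bases, which reach 50 bases past the start, were matched for 8 of the 10 members, with 2 starts each for Tgfbr1 and Ltbp1. Tgfb3 and Tgfbr3 were not matched. In this window Tgfb1 had 6 GC boxes, a number that 1.35% of all 32851 promoters in the table and 3.52% of the 9095 tested genes with a promoter reached. Ltbp2, Tgfbi and the upstream start of Tgfbr1 had 2 each, and at least 1 box was found in 35.7% of all promoters and in 70.0% of the tested genes. Tgfb2, Tgfbr2, Ltbp3 and both starts of Ltbp1 had none. With the shorter motif GGCGG, or CCGCC on the other strand, which lies inside the GC box, 6 of the 8 members had a match, where 48.8% of all promoters and 86.2% of the tested genes with a promoter have one. Of the tested genes with 3 or more GC boxes 22.0% rose and 28.6% fell, and of those with none 21.9% rose and 33.3% fell.

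Of the 10 genes 6 differed between dKO and CTR MLECs at an adjusted p under 0.05 (limma with Benjamini-Hochberg over the 12467 genes), against 53.1% of all genes tested, so the share of members is close to the background. Tgfb1, Tgfb2, Tgfbi and Tgfbr1 rose, which is 4 of 10 where 20.4% of all genes tested rose, and Ltbp1 and Ltbp3 fell, which is 2 of 10 where 32.6% fell. The median log2 fold change was 0.34 over the 10 genes and −0.10 over all genes tested. Tgfb1, Tgfb2, Tgfbi and Ltbp1 also changed over 1.5-fold on the scale of log2(FPKM + 1), as 17.9% of all genes tested did (8.92% higher and 8.98% lower), and 0 of 10 passed an absolute log2 fold change of 1.5, which 1.98% passed. The groups did not overlap for Tgfb1 (higher in dKO, as for 11.3% of all genes tested) and for Ltbp1 (lower in dKO, as for 16.1%). All log2 fold changes below are on the log2(FPKM + 1) scale, on which the change of weakly expressed genes looks smaller than it is. Fold changes given in mean FPKM are ratios of the group means.

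**Figure D1:**
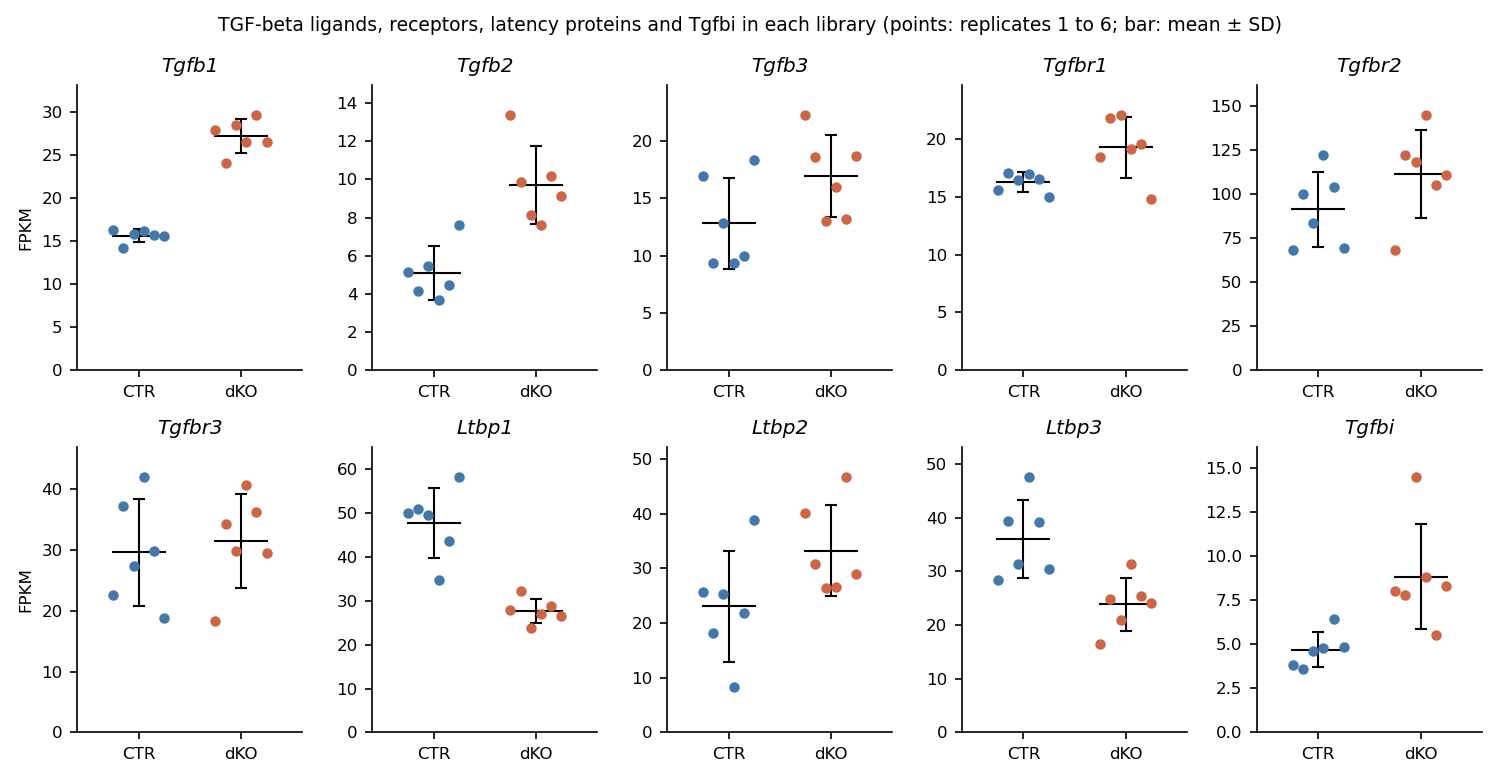
FPKM of the 10 genes in each library, with CTR in blue and dKO in red, points in the order of the replicate numbers, and the mean ± SD (n = 6) as a bar. All 6 dKO points lie above all CTR points for Tgfb1 and below all CTR points for Ltbp1, and the groups share part of their range in the other 8 panels.

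Among the ligands Tgfb1 and Tgfb2 rose in dKO MLECs, by 1.74-fold and 1.91-fold in mean FPKM, and the difference of Tgfb3 did not pass the threshold. Tgfb1 (ENSMUSG00000002603, chr7:25386390-25404506 of GRCm39), the most widely expressed isoform, had 14.2, 15.8 and 16.2 FPKM as the lowest, median and highest value in CTR and 24.1, 27.2 and 29.6 FPKM in dKO. The lowest dKO library, replicate 2, was above the highest CTR library, replicate 1. The mean level was 15.6 ± 0.755 FPKM in CTR and 27.2 ± 1.93 FPKM in dKO (SD, n = 6 each), with a log2 fold change of 0.76 ± 0.06 (SE) and an adjusted p of 1.43e-06 from limma. A two-sided exact permutation test gave p = 0.00216, the smallest that 6 against 6 libraries can give. Tgfb1 was also the least variable of the 10 genes in each group, with a coefficient of variation of 4.84% in CTR and 7.10% in dKO.

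Macrophages are among the cells that make Tgfb1, and the macrophage sum was higher in each dKO library than in each CTR library. Within dKO, the library with the lowest macrophage sum (replicate 5, 2476 FPKM) had the highest Tgfb1 level (29.6 FPKM), and the library with the highest sum (replicate 3, 5678 FPKM) had 28.5 FPKM. The endothelial sum, from 150 to 233 FPKM in CTR and from 280 to 376 FPKM in dKO, was also higher in each dKO library. The part of macrophage and endothelial content in the rise of Tgfb1 was not tested.

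Tgfb2 (ENSMUSG00000039239, chr1:186354985-186438294), the isoform best known from heart and vessel development, had 3.66, 4.79 and 7.63 FPKM as the lowest, median and highest value in CTR and 7.60, 9.5 and 13.4 FPKM in dKO. The groups met only through CTR replicate 6, the highest CTR library, and dKO replicate 4, the lowest dKO library. Its mean level was 5.08 ± 1.41 FPKM in CTR and 9.72 ± 2.05 FPKM in dKO (SD, n = 6 each). The log2 fold change was 0.83 ± 0.15 (SE), with an adjusted p of 0.000617 from limma. Of the 6 dKO libraries 5 lay above all CTR libraries. Without CTR replicate 4 the log2 fold change was 0.75 (adjusted p = 0.00121 from limma) and without dKO replicate 1, which had the highest level, it was 0.74 (adjusted p = 0.00109 from limma). The mesothelial sum was also higher in each dKO library (70.0 to 150.1 FPKM) than in each CTR library (31.1 to 41.6 FPKM). In dKO the library with the highest Tgfb2 level, replicate 1, had the highest mesothelial sum, and the libraries with the lowest Tgfb2 levels, replicates 4 and 3, had the lowest sums (71.0 and 70.0 FPKM). In CTR the highest Tgfb2 level was in replicate 6 (sum 36.3 FPKM) and the highest sum in replicate 3. This was not particular to mesothelial markers, since the smooth muscle sum was also lowest in dKO replicates 4 and 3 (76.1 and 78.7 FPKM). Its highest dKO value was in replicate 6 (109.3 FPKM). In CTR the smooth muscle sum was lowest in replicate 4 (79.4 FPKM), as was Tgfb2, and highest in replicate 1 (142.2 FPKM), with 135.4 FPKM in replicate 6. The smooth muscle sums overlapped between the groups. The part of mesothelial and smooth muscle content in the rise of Tgfb2 was not tested.

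Tgfb3 (ENSMUSG00000021253, chr12:86102756-86126301), a further isoform, ranged from 9.39 to 18.4 FPKM in CTR and from 13.0 to 22.3 FPKM in dKO, with medians of 11.4 and 17.3 FPKM. CTR replicates 1 and 6, at 17.0 and 18.4 FPKM, lay among the dKO libraries. The means were 12.8 ± 4.0 and 17.0 ± 3.60 FPKM (SD, n = 6 each), with a log2 fold change of 0.40, a 95% interval of 0.01 to 0.80 and an adjusted p of 0.0793 from limma. Leaving out CTR replicate 6 gave 0.51 with an adjusted p of 0.0266, and leaving out CTR replicate 1 gave 0.49 with an adjusted p of 0.0409. With the replicate number as a block the adjusted p of Tgfb3 was 0.0233 from limma, but the numbers were not taken as pairs. Exons of Tgfb3 share 179 bases with Ttll5 on the opposite strand, which had a mean of 1.43 FPKM in CTR and 1.03 FPKM in dKO, and the use of strand in counting is not given in the sources used here.

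The summed level of the 3 ligands was 33.5 ± 5.50 FPKM (SD, n = 6) in CTR, between 27.7 and 41.5 FPKM, and 53.9 ± 5.08 FPKM (SD, n = 6) in dKO, between 49.7 and 63.5 FPKM. Tgfb1 made up 47.4% of that sum in CTR and 50.8% in dKO, Tgfb2 15.0% and 17.9%, and Tgfb3 37.6% and 31.3%. The ranges of these shares overlapped between the groups for each ligand.

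**Figure D2:**
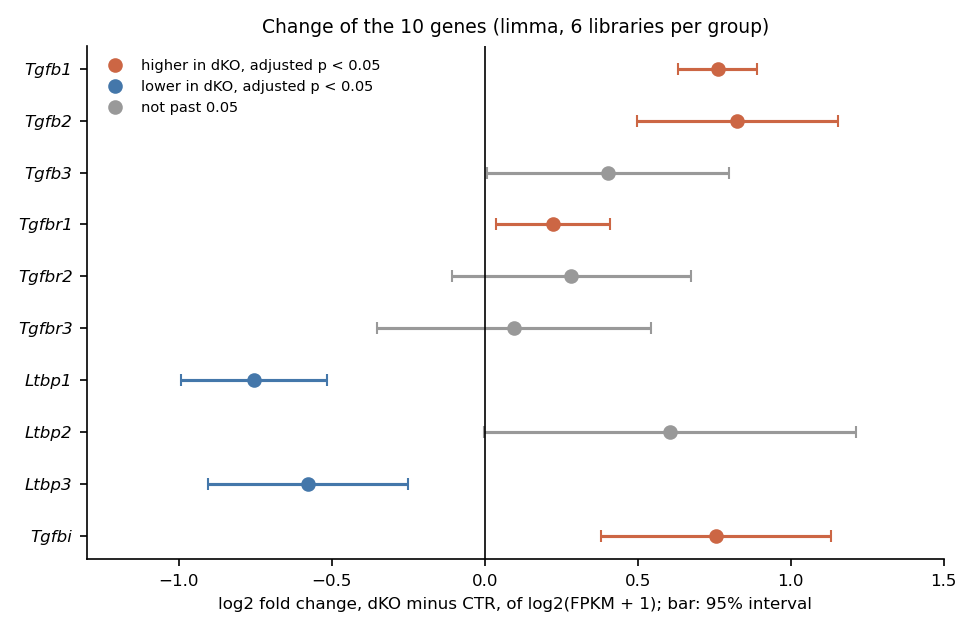
Log2 fold change (dKO minus CTR, of log2(FPKM + 1)) of the 10 genes with its 95% interval from limma, in red for genes that rose, blue for genes that fell and grey for genes past neither. The intervals of Tgfb1, Tgfb2, Tgfbi, Ltbp1 and Ltbp3 lie well away from 0, that of Tgfbr1 starts at 0.04, and those of Tgfbr2, Tgfbr3 and Ltbp2 include 0. That of Tgfb3 starts at 0.01, though the gene is grey, with an adjusted p of 0.0793 from limma. The intervals are not adjusted for the number of genes tested.

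The log2 fold changes of the receptors lay between 0.09 and 0.28 and those of the ligands between 0.40 and 0.83, a difference that was not tested. Of the receptors only Tgfbr1 passed the test, in a call that did not hold in most fits with 1 library left out. Tgfbr1 (ENSMUSG00000007613, chr4:47353134-47414931), the type I receptor kinase ALK5, had 14.9, 16.5 and 17.1 FPKM as the lowest, median and highest value in CTR and 14.8, 19.4 and 22.1 FPKM in dKO. The CTR libraries lay close together, 5 dKO libraries were above all of them, and dKO replicate 6 was below all of them. The mean was 16.3 ± 0.838 FPKM in CTR and 19.3 ± 2.65 FPKM in dKO (SD, n = 6 each), with a log2 fold change of 0.22 ± 0.09 (SE) and an adjusted p of 0.0427 from limma. With each library left out in turn, the log2 fold change lay between 0.18 and 0.29, and the adjusted p was over 0.05 in 9 of 12 fits, with a highest value of 0.096 without dKO replicate 2.

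Tgfbr2 (ENSMUSG00000032440, chr9:115913361-116004800), the type II receptor that binds the ligand first, had the highest level of the 10 genes in each group. Its values ran from 68.4 over a median of 91.6 to 122 FPKM in CTR and from 68.3 over 114 to 145 FPKM in dKO. The lowest library of each group was replicate 1 and the highest replicate 4. The spread within a group exceeded the gap between the means of 91.2 ± 21.3 and 111.5 ± 25.2 FPKM (SD, n = 6 each). The log2 fold change was 0.28 with a 95% interval of −0.11 to 0.67 and an adjusted p of 0.202 from limma. Without dKO replicate 1, the library that stood apart, it was 0.42 with an adjusted p of 0.0341, and without CTR replicate 4 it was 0.37 with an adjusted p of 0.0905. With the replicate number as a block the adjusted p of Tgfbr2 was 0.0353 from limma, but the numbers were not taken as pairs.

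Tgfbr3 (ENSMUSG00000029287, chr5:107249402-107437623), betaglycan, the co-receptor that presents Tgfb2, had 18.8, 28.6 and 42.0 FPKM as the lowest, median and highest value in CTR and 18.3, 32.0 and 40.7 FPKM in dKO. The groups covered nearly the same range. The means were 29.6 ± 8.74 and 31.5 ± 7.69 FPKM (SD, n = 6 each), the log2 fold change was 0.09 with a 95% interval of −0.35 to 0.54, and the adjusted p from limma was 0.72. Leaving out CTR replicate 6 turned the sign, to −0.02. Without dKO replicate 1 the log2 fold change was 0.24 (adjusted p = 0.286 from limma). Without CTR replicate 4 it was 0.20 (adjusted p = 0.409 from limma). Within the summed level of the 3 receptors, Tgfbr2 held 66.4 ± 1.89% (SD, n = 6) in CTR and 68.4 ± 2.73% (SD, n = 6) in dKO, Tgfbr3 21.3% and 19.3%, and Tgfbr1 12.3% in each group.

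The libraries at the ends of the range of Tgfbr2 and Tgfbr3 were in part those at the ends of several marker sums. CTR replicate 4 and dKO replicate 4 had the highest level of their group for both receptors and for the fibroblast sum (328 and 239 FPKM). The lowest fibroblast sum was that of CTR replicate 6 (132 FPKM) and dKO replicate 1 (98.3 FPKM), and these libraries had the lowest Tgfbr3 level of their groups, at 18.8 and 18.3 FPKM. This was not particular to fibroblast markers, since in CTR the endothelial and lung epithelial sums were also highest in replicate 4 (233 and 582 FPKM) and lowest in replicate 1 (150 and 148 FPKM), as was Tgfbr2. The part of cell content in the receptor levels was not tested.

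Among the latency proteins Ltbp1 and Ltbp3 fell, by 1.73-fold and 1.51-fold in mean FPKM, whereas Ltbp2 had a higher mean in dKO that did not pass the test. Ltbp1 (ENSMUSG00000001870, chr17:75312519-75699507), which anchors latent TGF-beta in the matrix, had 34.6, 49.6 and 58.1 FPKM as the lowest, median and highest value in CTR and 23.7, 27.4 and 32.2 FPKM in dKO. The lowest CTR library, replicate 4, was above the highest dKO library, replicate 2. The mean was 47.7 ± 7.92 FPKM in CTR and 27.7 ± 2.81 FPKM in dKO (SD, n = 6 each), with a log2 fold change of −0.75 ± 0.11 (SE) and an adjusted p of 0.000119 from limma. The two-sided exact permutation test gave p = 0.00216, and without CTR replicate 4 the log2 fold change was −0.84.

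Ltbp1 moved against the macrophage sum between the groups and within CTR. In CTR the macrophage sum rose from replicate 6 (859 FPKM) over replicates 2, 1, 3 and 5 to replicate 4 (1432 FPKM), and Ltbp1 fell in exactly that order, from 58.1 over 50.9, 49.9, 49.4 and 43.6 to 34.6 FPKM. In dKO the library with the highest macrophage sum, replicate 3, had the lowest Ltbp1 level (23.7 FPKM), while the library with the lowest sum, replicate 5, had the highest but 1 (28.7 FPKM). In CTR this was not particular to macrophage markers. The endothelial, lymphatic endothelial, fibroblast, pericyte, other leukocyte and lung epithelial sums were also highest in replicate 4. The lymphatic endothelial and fibroblast sums were lowest in replicate 6 (102 and 132 FPKM, against 180.5 and 328 FPKM in replicate 4). The smooth muscle sum was lowest in replicate 4 (79.4 FPKM), as was Ltbp1, and highest in replicate 1 (142.2 FPKM). The part of cell content in the fall of Ltbp1 was not tested.

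Ltbp3 (ENSMUSG00000024940, chr19:5790932-5808669), which also binds the latent complex, had 28.4, 35.2 and 47.5 FPKM as the lowest, median and highest value in CTR and 16.5, 24.5 and 31.3 FPKM in dKO. All dKO libraries except replicate 4 were below all CTR libraries, and CTR replicates 1 and 6 lay below dKO replicate 4. The mean was 36.0 ± 7.26 FPKM in CTR and 23.8 ± 4.94 FPKM in dKO (SD, n = 6 each), with a log2 fold change of −0.58 ± 0.15 (SE) and an adjusted p of 0.00624 from limma. Ltbp3 was highest in replicate 4 and lowest in replicate 1 in each group, as was Tgfbr2, and its log2 fold change was −0.50 without CTR replicate 4 and −0.48 without dKO replicate 1, with adjusted p-values of 0.0116 and 0.0105 from limma. In dKO the libraries had the same order in Ltbp3 as in the fibroblast sum. It ran from replicate 1 (98.3 FPKM) over replicates 3, 6, 2 and 5 to replicate 4 (239 FPKM). In CTR the order was the same but for replicates 1 and 6, the lowest in both. This was not particular to fibroblast markers. In CTR, though not in dKO, the pericyte sum had exactly the order of Ltbp3, from replicate 1 (78.1 FPKM) to replicate 4 (113.5 FPKM). The fibroblast sums (132 to 328 FPKM in CTR) and the pericyte sums overlapped between the groups. The part of fibroblast and pericyte content in the fall of Ltbp3 was not tested.

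Ltbp2 (ENSMUSG00000002020, chr12:84829986-84923306), a matrix protein of the same family that does not bind latent TGF-beta, had 8.26, 23.6 and 38.9 FPKM as the lowest, median and highest value in CTR and 26.3, 29.9 and 46.7 FPKM in dKO. CTR replicate 6 lay among the dKO libraries, and CTR replicate 4 was far below all others. The means were 23.0 ± 10.1 and 33.3 ± 8.29 FPKM (SD, n = 6 each), with a log2 fold change of 0.60, a 95% interval that included 0 and ran up to 1.21, and an adjusted p of 0.0859 from limma. The value rested on these libraries: without CTR replicate 4 it was 0.35 with an adjusted p of 0.134, and without CTR replicate 6 it was 0.78 with an adjusted p of 0.0261.

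Ltbp1, Ltbp2 and Ltbp3 are grouped by family here, without Ltbp4 of the same family. Since Ltbp2 does not bind latent TGF-beta, their sum is not a measure of all that binds it. The 3 genes summed to 107 ± 11.9 FPKM in CTR and 84.8 ± 9.82 FPKM in dKO (SD, n = 6 each). Ltbp1 made up 44.5 ± 3.73% of the sum in CTR, where it was the largest of the 3 on average, and 32.8 ± 2.66% in dKO (SD, n = 6 each). Ltbp2 made up 21.0 ± 7.37% in CTR and 38.9 ± 6.47% in dKO, where it was the largest on average, and Ltbp3 34.5 ± 10.3% and 28.3 ± 5.79%. The ranges of the Ltbp1 share (38.3 to 48.0% in CTR, 28.5 to 36.6% in dKO) and of the Ltbp2 share (9.14 to 30.5% and 31.3 to 47.5%) did not meet, and that of Ltbp3 overlapped.

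**Figure D3:**
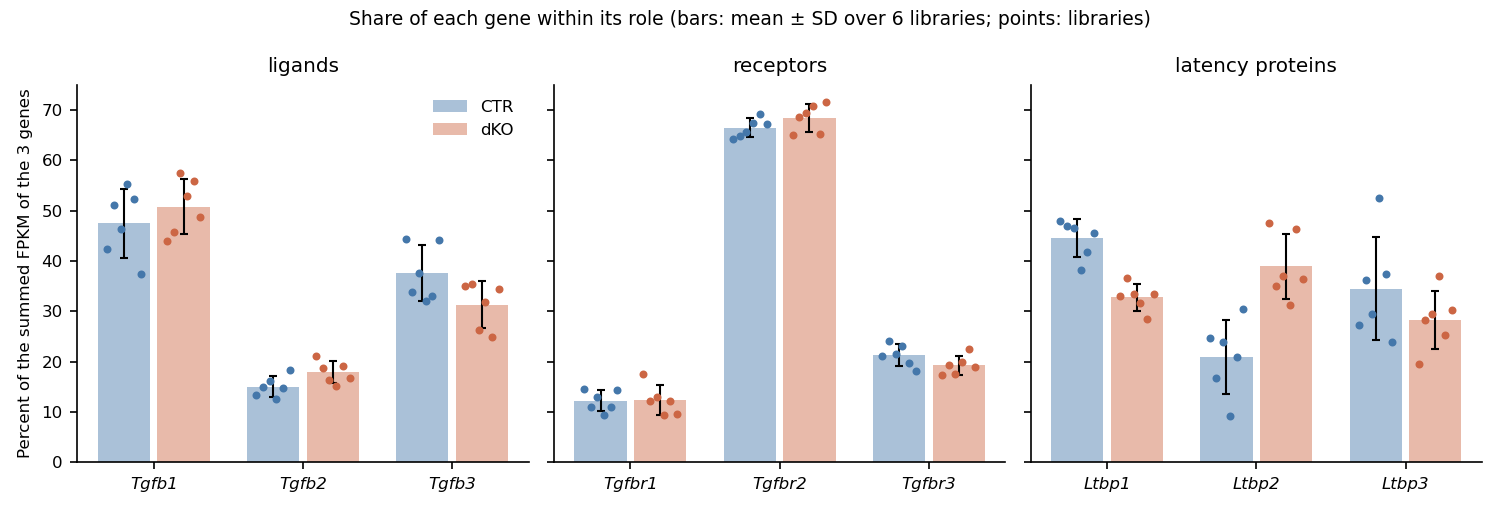
Share of each gene in the summed FPKM of the 3 ligands, the 3 receptors and the 3 latency proteins, as bars (mean) with SD (n = 6) and 1 point per library, CTR in blue and dKO in red. The shares of Ltbp1 (44.5% in CTR, 32.8% in dKO) and Ltbp2 (21.0% and 38.9%) are apart between the groups, and those of the ligands and receptors overlap.

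Since Tgfb1 rose and Ltbp1 fell, their ratio differed more than either gene. It was 0.337 ± 0.0728 (SD, n = 6) in CTR, from 0.267 to 0.468, and 0.993 ± 0.145 (SD, n = 6) in dKO, from 0.747 to 1.20. The ratio of Ltbp2 to Ltbp1 was 0.466 ± 0.149 in CTR and 1.20 ± 0.269 in dKO (SD, n = 6 each), with ranges of 0.239 to 0.670 and 0.958 to 1.63. These ratios were computed within each library, are not tested and follow from the changes given above.

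Tgfbi (ENSMUSG00000035493, chr13:56757336-56787375), a secreted matrix protein that binds collagens and integrins, had 3.61, 4.71 and 6.46 FPKM as the lowest, median and highest value in CTR and 5.53, 8.19 and 14.5 FPKM in dKO. All dKO libraries except replicate 5 were above all CTR libraries, and dKO replicate 3 was far above the rest. The mean rose from 4.70 ± 1.01 to 8.83 ± 2.99 FPKM (SD, n = 6 each), with a log2 fold change of 0.76 ± 0.17 (SE) and an adjusted p of 0.00285 from limma. Without dKO replicate 3 the log2 fold change was 0.62 with an adjusted p of 0.00273.

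The dKO libraries with the highest and the lowest Tgfbi level, replicates 3 and 5, were also those with the highest and the lowest macrophage sum, at 5678 and 2476 FPKM. In CTR no such order was seen, since Tgfbi was highest in replicate 5 (6.46 FPKM, with a sum of 1282 FPKM) and nearly equal in replicates 6 and 4 (4.83 and 4.81 FPKM), which had the lowest and the highest sum (859 and 1432 FPKM). Macrophages are known to express Tgfbi, and the part of macrophage content in its rise was not tested.

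**Figure D4:**
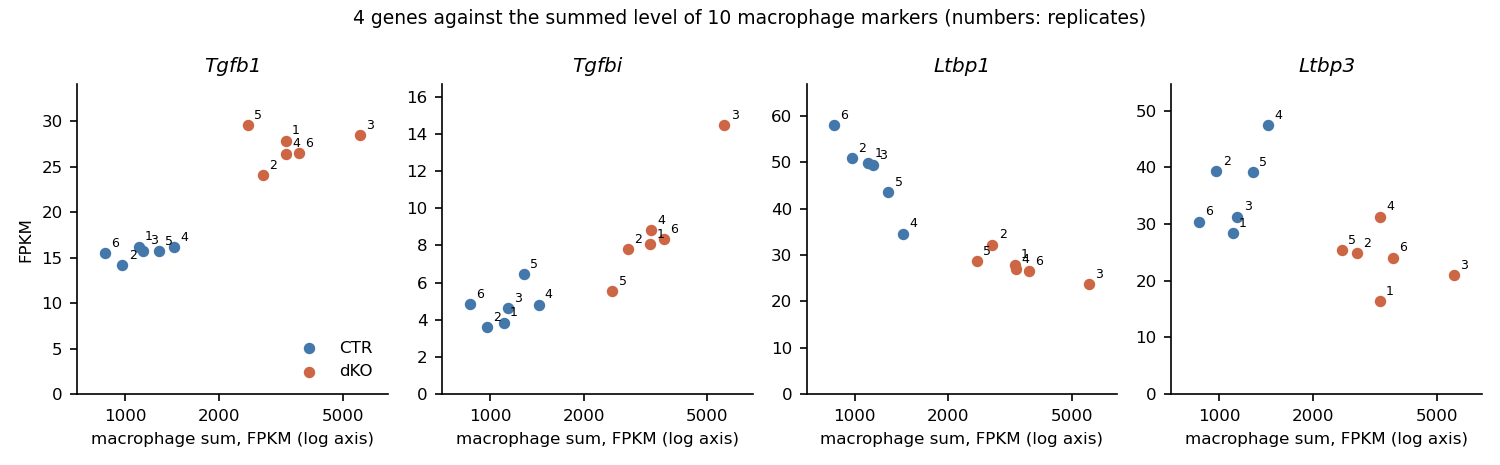
FPKM of Tgfb1, Tgfbi, Ltbp1 and Ltbp3 in each library against the summed FPKM of 10 macrophage markers (log axis), CTR in blue and dKO in red, with replicate numbers beside the points. The sums run from 859 to 1432 FPKM in CTR and from 2476 to 5678 FPKM in dKO. Ltbp1 falls as the sum rises in CTR and is lowest at the highest sum in dKO, Tgfbi peaks in dKO replicate 3, and Tgfb1 shows no such order within dKO. Ltbp3 is lower in dKO on average, but in CTR it is highest (47.5 FPKM) in replicate 4, at the highest sum, and 30.4 FPKM in replicate 6, at the lowest.

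FPKM is scaled by gene length, so an order of genes by mean FPKM depends on the gene lengths used. In that order Tgfbr2 led in each group, followed in CTR by Ltbp1, Ltbp3, Tgfbr3, Ltbp2, Tgfbr1, Tgfb1, Tgfb3, Tgfb2 and Tgfbi. In dKO the order was Tgfbr2, Ltbp2, Tgfbr3, Ltbp1, Tgfb1, Ltbp3, Tgfbr1, Tgfb3, Tgfb2 and Tgfbi. Neighbours in this order overlapped in range, except Tgfbr2 over the next gene in each group and Tgfb3 over Tgfb2 in CTR. Ltbp1 thus stood in place 2 in CTR, where all of its libraries were above all Tgfb1 values, and in place 4 in dKO, where Tgfb1 (27.2 FPKM) and Ltbp1 (27.7 FPKM) had nearly the same mean.

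The members also varied within the groups. CTR replicate 4 had the lowest CTR level of Tgfb2, Tgfb3, Ltbp1 and Ltbp2 and the highest of Tgfbr2, Tgfbr3 and Ltbp3, and CTR replicate 6 had the highest of Tgfb2, Tgfb3, Ltbp1 and Ltbp2. In dKO, replicate 1 had the highest Tgfb2 and Tgfb3 levels and the lowest of Tgfbr2, Tgfbr3 and Ltbp3. The library with the highest Tgfb2 level thus had the lowest Tgfbr3 level in each group (CTR replicate 6 and dKO replicate 1). For Tgfb2 and Tgfb1, which had the largest absolute log2 fold changes with a pseudocount of 1 and all libraries (0.83 and 0.76, Ltbp1 at −0.75 and Tgfbi at 0.76, with Tgfbi above Tgfb1 at a pseudocount of 0.1), the genes with the most similar pattern over the 12 libraries after centring each group were Afg3l1, Gm10232 and Esrp2 (Pearson's r of log2(FPKM + 1) of 0.961, 0.960 and 0.958) for Tgfb2 and Socs1, M6pr and Nus1 (0.917, 0.857 and 0.845) for Tgfb1. Between the groups, Afg3l1 and Gm10232 fell in dKO (log2 fold change −0.41 and −0.57) while Tgfb2 rose, M6pr and Nus1 rose (0.30 and 0.40) as did Tgfb1, and Esrp2 (−0.13) and Socs1 (−0.19) did not pass. The correlations are the highest of all tested genes, are given as a description, and the libraries share depth and cell content.

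The rest of the pathway was described by 4 lists with 67 tested genes of 73. Of these 16 rose, 15 fell and 36 did not pass, so 46.3% passed the test against 53.1% of all genes tested. Their median log2 fold change was 0.02.

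Of 10 tested receptors and co-receptors of the TGF-beta and BMP family, 2 rose and 2 fell, against 20.4% and 32.6% of all genes tested. Their median log2 fold change was 0.02. Eng, the co-receptor endoglin of endothelial cells, ranged from 24.9 to 30.5 FPKM in CTR and from 39.0 to 65.3 FPKM in dKO, with a log2 fold change of 0.91 ± 0.12 (SE) and an adjusted p of 6.69e-05 from limma. Acvrl1, the endothelial type I receptor ALK1, rose from 16.9 ± 2.49 to 27.1 ± 5.93 FPKM (SD, n = 6 each), with a log2 fold change of 0.64. Both are endothelial genes and rose as did 9 of 10 endothelial markers, and the part of endothelial content in their rise was not tested. The receptors that fell were Bmpr1a, a type I BMP receptor, from 24.7 ± 1.23 to 17.6 ± 2.47 FPKM, and Acvr2a, a type II activin receptor, from 15.2 ± 1.08 to 10.7 ± 1.27 FPKM (SD, n = 6 each), each with a log2 fold change of −0.48 and no overlap between the groups.

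Of 17 tested genes for storage, release and activation of latent TGF-beta, 5 rose and 2 fell, against 20.4% and 32.6% of all genes tested. Thbs1, thrombospondin 1, an activator of latent TGF-beta, rose from 118 ± 65.4 to 305 ± 106 FPKM (SD, n = 6 each), with a log2 fold change of 1.45 ± 0.30 (SE) and an adjusted p of 0.00134 from limma. Nrros, which holds latent TGF-beta on macrophages and microglia, rose from 3.21 ± 0.647 to 8.57 ± 2.42 FPKM (SD, n = 6 each). Its log2 fold change was 1.16, in the same libraries in which the macrophage sum was higher. The part of macrophage content in the rise of Nrros was not tested. Adamts1, a matrix protease, fell from 119 ± 26.5 to 71.5 ± 16.8 FPKM (log2 fold change −0.73), and Ltbp4, another member of the binding protein family, from 23.1 ± 4.81 to 17.5 ± 3.57 FPKM (log2 fold change −0.39, adjusted p = 0.0357 from limma). The call of Ltbp4 was lost in 7 of 12 fits with 1 library left out and in 5 of 14 other alternatives, with an adjusted p of up to 0.111 (median-of-ratios scaling).

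Of 17 tested genes of Smad signalling and its regulators 5 rose and 6 fell, against 20.4% and 32.6% of all genes tested. Smad7, an inhibitory Smad that is itself induced by TGF-beta, rose from 5.90 ± 0.682 to 11.0 ± 1.68 FPKM (SD, n = 6 each), with a log2 fold change of 0.79 ± 0.10 (SE), an adjusted p of 3.08e-05 from limma and no overlap. Smad6, the inhibitory Smad of the BMP branch, had a log2 fold change of 0.41 (adjusted p = 0.0352), and Tgif1, a repressor that binds Smads, of −0.41 (adjusted p = 0.0363), and with 1 library left out these calls were lost in 9 and 7 of 12 fits. Zfyve9, which brings Smads to the receptor, fell from 5.57 ± 0.381 to 4.44 ± 0.182 FPKM (SD, n = 6 each), a log2 fold change of −0.27 with no overlap.

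Of 23 tested genes known as TGF-beta targets 4 rose, 5 fell and 14 did not pass, with a median log2 fold change of −0.11. Over all genes tested 20.4% rose and 32.6% fell, with a median of −0.10. Ccn2, connective tissue growth factor, rose from 63.0 ± 33.3 to 174 ± 85.1 FPKM (SD, n = 6 each; log2 fold change 1.5 ± 0.35, SE), and Cdkn1a, the cell cycle inhibitor p21, from 129 ± 27.8 to 255 ± 56.0 FPKM (log2 fold change 0.98). The collagen genes Col1a1 and Col3a1, made mainly by mesenchymal cells, fell from 1173 ± 65.1 to 571.5 ± 127.6 FPKM and from 544 ± 141 to 257 ± 84.8 FPKM (SD, n = 6 each), with log2 fold changes of −1.07 and −1.12. The fibroblast markers beside them (1 of 7 rose and 2 fell) have sums that overlap between the groups, and their part in the fall of the collagens was not tested.

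**Figure D5:**
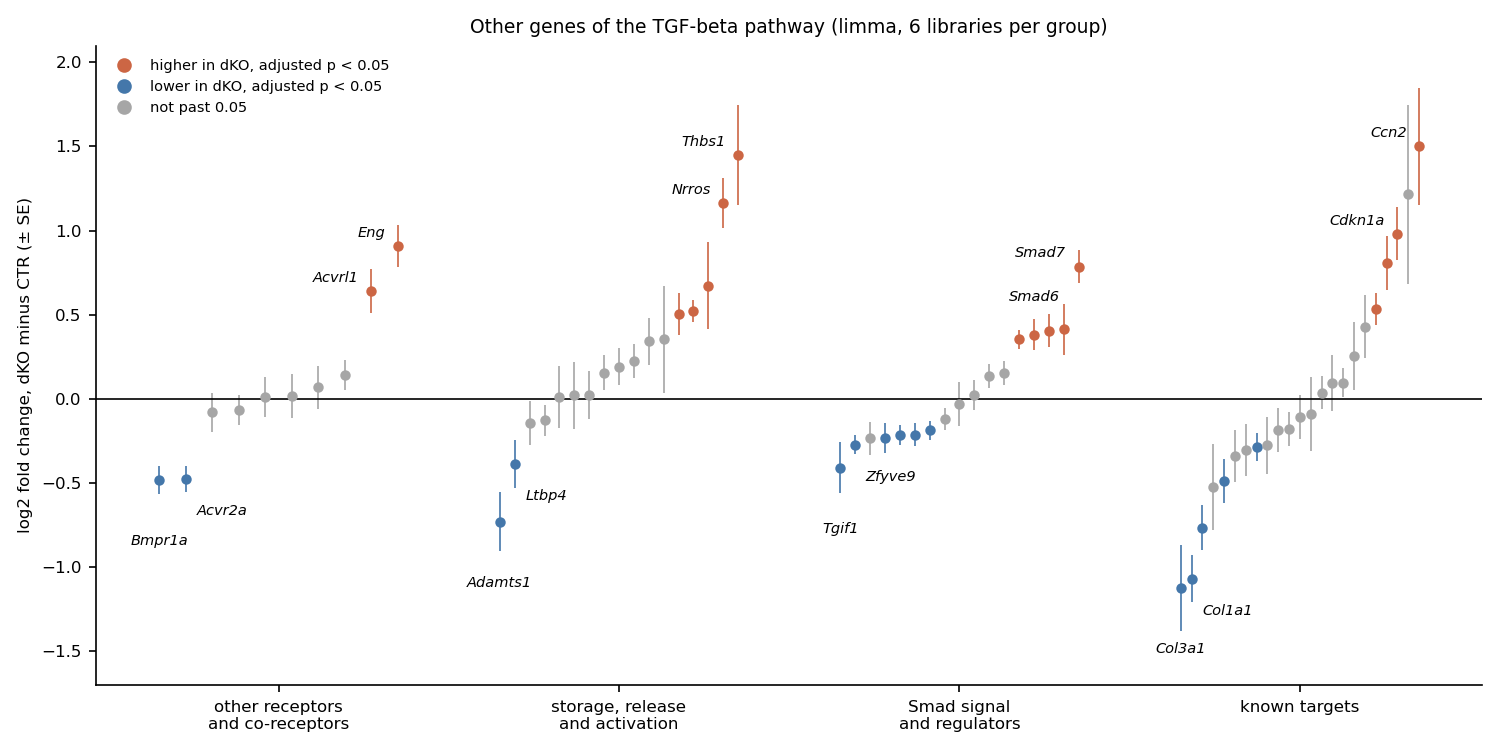
Log2 fold change (dKO minus CTR, with SE) of the 67 tested genes of the 4 pathway lists, ordered by value within each list, red for genes that rose, blue for genes that fell and grey for genes past neither, with names for the 2 largest changes in each direction. Each list holds changes in both directions, from −1.12 (Col3a1) to 1.5 (Ccn2).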

How the data were processed

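Reads were quality-checked (FastQC) and trimmed (Trimmomatic) by the authors, mapped to mm39 (STAR), reduced to unique alignments (sambamba) and mapped anew. The submitters' processing notes also name Bowtie2 2.2.3 and HISAT2 2.1.0. The counting program, annotation and strand setting are not given in the sources used here, and the extraction text of the labels names retinas and a TruSeq kit, whereas their tissue entry gives lung and the study's methods give lung cells and a NEB kit. The authors deposited FPKM values per gene and library, and 0 columns were left unmapped. Of the 28689 genes 27706 were matched by Ensembl identifier to GENCODE vM39 of GRCm39.

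FPKM are not counts, so limma 3.58.1 in R 4.3.3 (lmFit, eBayes with a trend, no block) was used on log2(FPKM + 1) in place of the study's DESeq2, for genes that reached 1 FPKM in 6 or more of the 12 libraries, with Benjamini-Hochberg adjustment. Whole fragments were recovered for all genes (100% of values whole within 1e-05 fragments) and served for depth and an alternative. The recovered gene lengths equal the annotated exon length for 8863 genes, so fragment numbers are less certain than FPKM. Exact permutation tests were two-sided over 924 splits. Steps were tested on simulated data. SciPy 1.17.1, numba 0.67.0, pandas 2.3.3, NumPy 2.4.6 and Matplotlib 3.10.9 under Python 3.11.15 served for the rest.

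The genes named are the 10 members, Sp1 and Sp3, the 2 largest changes in each direction in each pathway list among genes past the test, and the 3 genes most like the 2 members that changed most. Ttll5 was added because it overlaps a member, and Marco, Mmrn1, Lyz2 and Pdgfra were named after their values were seen. The members and lists were chosen with earlier results of these data known. Alternatives were the pseudocounts 0.1 and 0.01, 3 other filters, 4 other scalings, array weights, robust eBayes, a gene-wise exact permutation test, the replicate number as a block, limma-voom on recovered fragments, leaving out each library in turn and, for promoters, the shorter motif.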

Additional observations from a re-analysis of the deposited data

Results flagged for a closer look

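In 2 of the 24 groups of 6 values of the 10 genes, Sp1 and Sp3, a library lay apart from the others of its group by Dixon's test, where chance alone would give 1.2. Tgfb1 was lowest in CTR replicate 2, at 14.2 FPKM, with the other CTR libraries between 15.5 and 16.2 FPKM. Tgfbi was highest in dKO replicate 3, at 14.5 FPKM, with the other dKO libraries between 5.53 and 8.81 FPKM.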

How the results depend on the processing

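Tgfb1, Tgfb2, Tgfbi, Ltbp1, Ltbp3 and Sp1 kept their direction and their side of the threshold in all 26 alternatives. Tgfbr3 passed in none of them (lowest adjusted p 0.286), and Tgfb3, Tgfbr1, Tgfbr2, Ltbp2 and Sp3 changed sides with the setting, for which the cause was not tested. Tgfbr1 no longer passed with no filter (log2 fold change 0.22), in TPM (0.18) and in the exact permutation test for each gene (0.22). Tgfb3 passed with median-of-ratios scaling (0.49) and array weights (0.43), Tgfbr2 with array weights (0.38), Ltbp2 with array weights (0.50), and Sp3 in TPM (−0.20) and with array weights (−0.15). With each library left out, the log2 fold change of Tgfb3 lay between 0.32 and 0.51 (past the threshold without CTR replicate 1 or 6), that of Tgfbr1 between 0.18 and 0.29, of Tgfbr2 between 0.20 and 0.42 (past it without dKO replicate 1), of Tgfbr3 between −0.02 and 0.24 (reversed without CTR replicate 6, −0.0207), of Ltbp2 between 0.35 and 0.78 (past it without CTR replicate 6) and of Sp3 between −0.18 and −0.11 (past it without CTR replicate 6). The number of members past the threshold lay between 5 and 7 with a library left out and reached 9 with array weights. Over all genes, 6614 passed, of which 38.5% were higher in dKO, and 6237 with 50.9% higher under median-of-ratios scaling. With a filter of at least 5 FPKM, which tests fewer genes, 4222 passed, and 1347 instead of 2232 also changed over 1.5-fold. Of the 2232 genes 49.8% were higher in dKO. That share was 61.1% under median-of-ratios scaling and 40.7% in TPM.

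The labels do not say that a replicate number marks a shared mouse or day, and the numbers were not taken as pairs: deviations from the group means correlated between same-numbered libraries with r from −0.11 to 0.57, with 3 of 6 numbers over 0.1, and only replicates 1 and 4 of CTR correlated best with the dKO library of their own number. With the replicate block 6955 genes and 8 members passed, Tgfb3 (0.40, adjusted p = 0.0233) and Tgfbr2 (0.28, adjusted p = 0.0353) among them. The least covered member had 230 recovered fragments in its lowest library.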
